A study of Homo sapiens with 4 samples.

Results

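Of the regions of open chromatin called in Ishikawa cells, 3623 were called after dexamethasone alone and lay more than 10 kb from every region called with vehicle or estradiol. Ishikawa is an established human endometrial adenocarcinoma line. Peaks of the vehicle, dexamethasone and estradiol libraries on chromosomes 1 to 22 and X were merged where they shared 1 bp or more, which gave 8975 merged regions. Of these, 4038 (45.0%) held dexamethasone peaks only. The isolated dexamethasone-only regions were 40.4% of the merged regions, and 43.1% of the 8403 that held a dexamethasone peak. Members were chosen by the peak calls of the 3 libraries and by the distance between peaks, so their calls, heights and lengths in the dexamethasone library are given as a description.

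All cells were kept for at least 4 days in phenol red-free medium with hormone-stripped (charcoal/dextran treated) serum and then treated for 1 hour. The vehicle library came from cells given DMSO, the dexamethasone library from cells given 100 nM dexamethasone, and the estradiol library from cells given 10 nM estradiol. A combination library came from cells given 100 nM dexamethasone and 10 nM estradiol together. Each treatment had 1 library of 1 cell line, so no difference between treatments could be tested against replicate spread, and the values describe these libraries. Accessibility was read by ATAC-seq, in which a transposase inserts sequencing adapters into exposed DNA.

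Dexamethasone is a synthetic ligand of the glucocorticoid receptor, a steroid receptor that waits in the cytoplasm bound to chaperones and moves into the nucleus when it binds hormone. There it binds palindromic response elements, mostly at enhancers far from gene starts, and recruits coactivators and chromatin remodellers. Much of its binding is known to fall in chromatin that is already open, and a smaller part in chromatin that opens after hormone. In the uterus, glucocorticoids are known for opposing some estrogen responses. Estradiol activates the related estrogen receptor, which binds a different palindrome.

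The libraries differed in depth. After duplicate removal 10694743 vehicle tags, 14980230 dexamethasone tags, 20185339 estradiol tags and 8240912 combination tags remained. The modelled fragment lengths were 104, 89, 84 and 51 bp in the same order. A region's height is the number of extended tags over its summit, so it moves with both quantities. The product of tags and fragment length was 1.27 times that of the dexamethasone library in the estradiol library, 0.834 times in vehicle and 0.315 times in the combination. The part of these differences in the calls was not tested.

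The isolated regions were low and short. Their heights ran from 11 to 36 tags with a median of 18, and their fold enrichments over local background ran from 5.94 to 16.9 with a median of 9.35. Their lengths ran from 89 to 416 bp with a median of 122 bp, and 10.8% of them (393 regions, 95% exact interval 9.85 to 11.9) had the shortest length found in the list, 89 bp, which equals the modelled fragment length. All such intervals cover counting error only. The 415 dexamethasone-only regions within 10 kb of a vehicle or estradiol peak had medians of 21 tags, 8.66-fold and 116 bp. Short length and low fold enrichment were thus not particular to the isolated ones. The 2526 regions called after each hormone but not in vehicle had a median height of 22 tags, a median fold enrichment of 10.4 and a median length of 165 bp. The 1640 regions called in all 3 libraries stood higher still, with medians of 30 tags, 12.1-fold and 249 bp. The ranges overlapped: 33.5% of the isolated regions (1215) reached 20 tags, as did 66.8% of the regions shared by the hormones, and 22 isolated regions reached 30 tags.

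**Figure D1:**
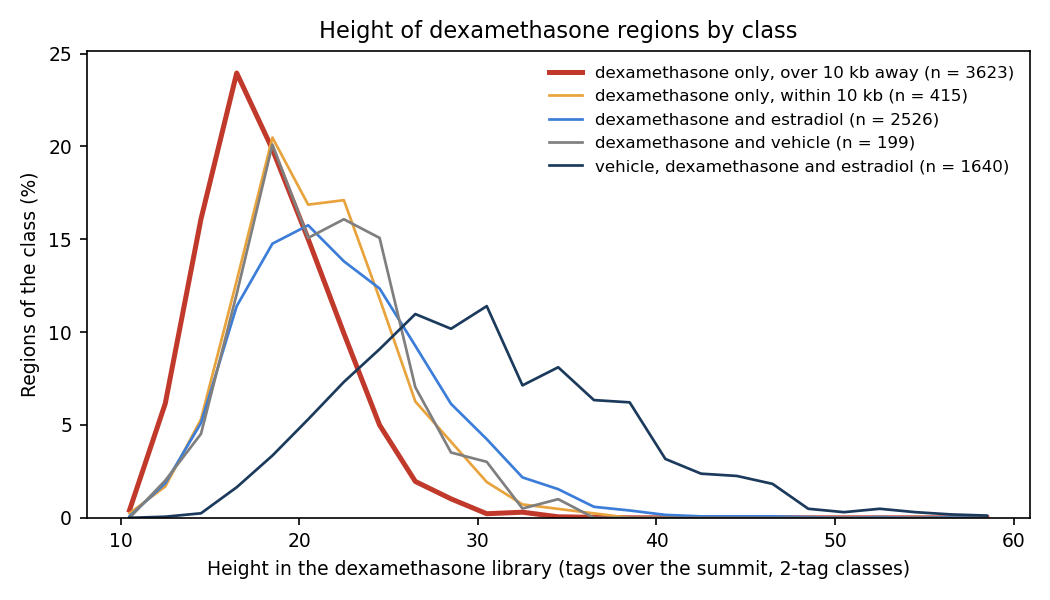
Height of dexamethasone regions in the dexamethasone library, as the percentage of each class in 2-tag height classes; heights of 60 tags and above are not drawn. The isolated dexamethasone-only regions (thick line) have their median at 18 tags, below the 22 of regions shared by both hormones and the 30 of regions in all 3 libraries.

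Ranking all dexamethasone regions by p-value showed where the isolated ones lay. They made up 2.73% of the strongest decile (23 of 841 regions) and 73.1% of the weakest (615 of 841). The share grew at every step between, through 22.3% in the third decile, 46.4% in the fifth and 57.98% in the seventh. Regions called in all 3 libraries ran the other way, from 78.1% of the strongest decile to 0.713% of the weakest. Regions shared by the hormones without vehicle were most frequent in the third decile, at 44.5%. A low region can fail the cutoff of a library by a few tags. A missing call in vehicle or estradiol therefore shows only that the region did not pass that library's cutoff. Whether it was open or closed there was not tested.

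**Figure D2:**
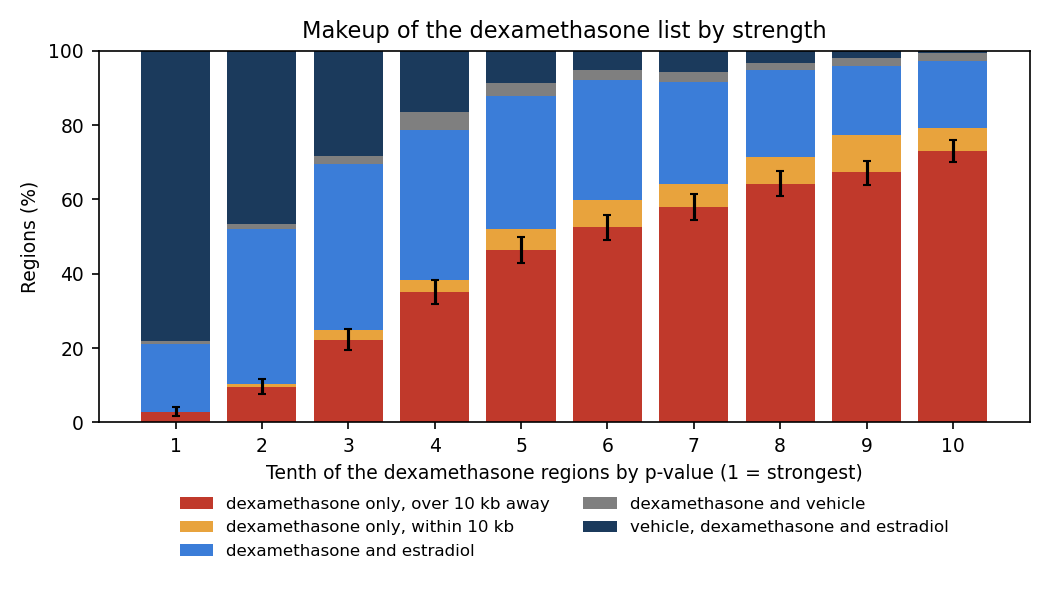
Makeup of each decile of the dexamethasone regions by p-value, as percentages of the regions in the decile. Error bars are 95% exact intervals of the share of isolated dexamethasone-only regions, which runs from 2.73% in the strongest decile to 73.1% in the weakest.

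Heights can be put on the scale of another library through the products of depth and fragment length given above. On the scale of the estradiol library the median isolated region would have 22.9 tags, and 2802 of the 3623 (77.3%, 75.9 to 78.7) would reach the 20 tags that were the median of the called estradiol regions. On the scale of vehicle the median would be 15.02 tags, and 671 (18.5%, 17.3 to 19.8) would reach the vehicle median of 18. The lowest height called was 10 tags in each of these 2 libraries. Every isolated region had at least 11 tags, so all 3623 were bound to reach it on the estradiol scale. On the vehicle scale 12 tags were enough, which 3608 (99.6%) had. The lowest height called is not a threshold, since a region over a higher background needs more tags to pass the p cutoff. Reaching it thus does not mean that a region would be called. The scaled heights assume the same density in every library. Called heights are selected to be high, so the scaled heights run above what an unchanged region would show on average.

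Length differed between the classes at equal height too. Among regions of 18 to 20 tags, the 1003 isolated regions had a median length of 124 bp (quartiles 102 and 159). The 573 regions shared by the hormones had 150 bp (120 and 186) and the 98 regions in all 3 libraries 186.5 bp (154 and 219.8). The 122 dexamethasone-only regions within 10 kb of another region had 110.5 bp (94.3 and 143.5). The order of the medians was the same at 24 to 26 tags, with 151 bp for 222 isolated regions, 187 bp for 450 shared by the hormones and 225 bp for 237 in all 3 libraries. The quartile ranges of the isolated and the hormone-shared regions overlapped in each height class. Length in this list is the stretch over which the tag pileup passed the cutoff. The classes were set by an overlap of 1 bp or more, which a longer region meets more easily. The lengths are therefore a description at equal height too.

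**Figure D3:**
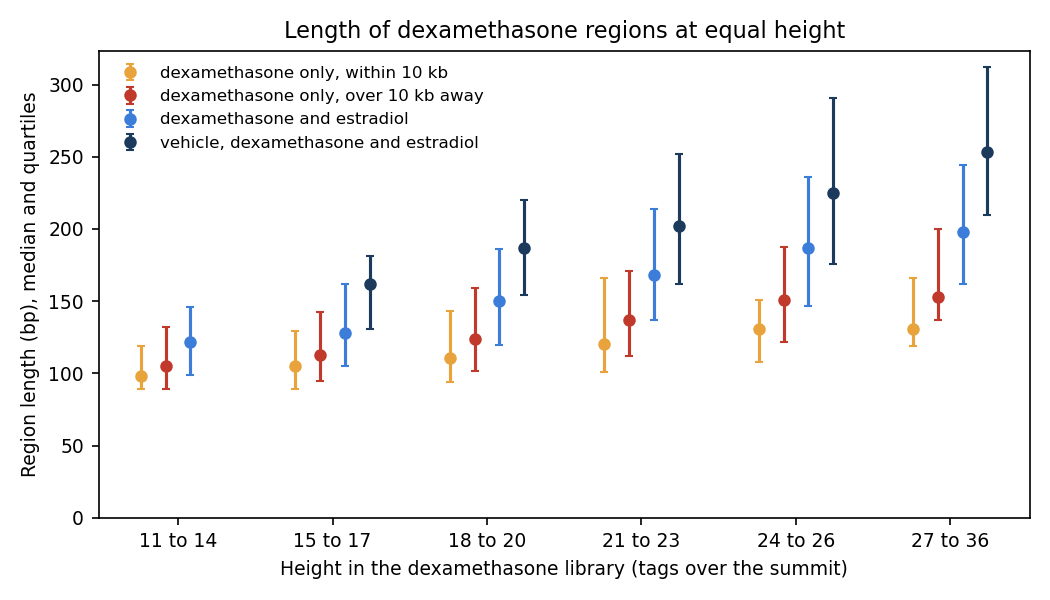
Length of dexamethasone regions in classes of equal height (tags over the summit); points are medians and bars reach the quartiles, drawn for groups of at least 10 regions. At 18 to 20 tags the medians run from 110.5 bp (dexamethasone only, within 10 kb) through 124 bp (isolated) and 150 bp (both hormones) to 186.5 bp (all 3 libraries).

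The local background of each region, derived from its height and fold enrichment, is the tag pileup that its own surroundings of 10000 bp would give. Its lowest value in the list was the genome-wide value, at which 39 isolated regions (1.08%) stood. Isolated regions had a median background of 0.979 tags (quartiles 0.792 and 1.24), where the genome-wide value of the library was 0.494. Dexamethasone-only regions within 10 kb of another region had 1.49 (1.13 and 1.86), regions shared by the hormones 1.14 (0.899 and 1.43) and regions in all 3 libraries 1.53 (1.20 and 1.89). At 18 to 20 tags the isolated regions had a median of 1.04 and the hormone-shared regions 0.997, so the order of these classes turned round at equal height. The isolated median was also the higher at 21 to 23 tags, at 1.25 against 1.15, and at 24 to 26 tags, at 1.37 against 1.31, with quartile ranges that overlapped. The dexamethasone-only regions beside another region had a higher background at 18 to 20 tags, 1.36. The neighbour that puts them in this class can lie inside the background window, and its part in these values was not tested.

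The distance to the nearest vehicle or estradiol peak edge ran from just over the 10 kb limit to 5.51 Mb, with a median of 135 kb. It was over 100 kb for 2138 isolated regions (59.0%, 57.4 to 60.6) and over 1 Mb for 185 (5.11%, 4.41 to 5.87). Height and length varied little with distance: over 7 distance classes the median height was 17 or 18 tags and the median length 120 to 123 bp. Regions between 10 and 20 kb away (224) had a median of 18 tags, 9.53-fold and 123 bp, and those over 1 Mb away (185) had 17 tags, 9.25-fold and 120 bp. The background was lower with distance, with medians of 1.001 and 0.881 tags in the same groups and quartile ranges that overlapped.

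Being far from other regions was the usual position in these sparse lists. Of all 4038 dexamethasone-only regions, 89.7% (88.7 to 90.6) lay over 10 kb from a vehicle or estradiol region. By the same distance to the nearest other region holding a vehicle or estradiol peak, 90.7% of the regions shared by the hormones were isolated (89.5 to 91.8), as were 89.1% of those in all 3 libraries (87.5 to 90.6). Within 1 Mb on each side, the isolated regions had a median of 8 other merged regions (quartiles 5 and 11), of which 4 held a vehicle or estradiol peak. Regions shared by the hormones and those in all 3 libraries also had a median of 8, and dexamethasone-only regions beside another region had 10. The region nearest to an isolated one was of the hormone-shared class in 52.5% of cases (50.8 to 54.1), a class that formed 51.2% of all regions with a vehicle or estradiol peak. It was called in all 3 libraries in 31.2% (29.7 to 32.7), against 33.2% of all such regions.

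The same rule turned round gave a shorter list with estradiol. Of the 514 estradiol-only regions, 426 lay over 10 kb from any vehicle or dexamethasone peak (82.9%, 79.3 to 86.0). Of the 37 vehicle-only regions 24 did (64.9%, 47.5 to 79.8). The dexamethasone list is the longest, so estradiol and vehicle regions had more neighbours to be near, and these shares cannot be compared directly with that of dexamethasone.

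The 10 isolated regions with the highest fold enrichment lay on 8 chromosomes, with 21 to 33 tags, 14.7-fold to 16.9-fold enrichment and lengths of 101 to 236 bp. Their nearest vehicle or estradiol peak was 33.5 to 670 kb away, and none was called in the combination library. Positions are on hg19, and genes at these positions were not analysed here. The first was chr12:38676785-38676928, with 26 tags and 16.9-fold enrichment. The vehicle or estradiol peak nearest to it was an estradiol one 33.5 kb away with 16 tags. The second, chr7:76751852-76751962, had 24 tags at 16.7-fold over a background equal to the genome-wide value, and its nearest estradiol region was 574 kb away. The third, chr2:152708413-152708552, had 28 tags at 16.4-fold, with the nearest estradiol region at 182 kb and the nearest vehicle region at 1857 kb.

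Another region on the same chromosome, chr2:109335758-109335993, was the longest of the 10 at 236 bp, with 23 tags at 15.8-fold. The next, chr4:89658875-89659026, had 29 tags at 15.4-fold and lay 144 kb from an estradiol region of 16 tags. The highest of the 10 by tags was chr1:71546967-71547104, with 33 tags at 15.1-fold, and its nearest vehicle or estradiol peak was a vehicle one 670 kb away, while another isolated region lay 33.4 kb away. The remaining 4 were chr6:75953476-75953601 (29 tags, 40.9 kb from an estradiol region of 26 tags), chr11:11643589-11643750 (30 tags, 469 kb), chr3:160938971-160939109 (30 tags, 655 kb) and chr7:44078835-44078935 (21 tags, 43.3 kb). The fold enrichments of these 4 lay between 14.7 and 15.1. The 10 regions were picked as the highest by fold enrichment, so their place in it is by selection. They overlapped in fold enrichment with the top of the hormone-shared class, which had a 95th percentile of 13.8-fold and a highest value of 18.3-fold.

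Some further regions were picked after their values were seen. The tallest isolated region was chr3:173113314-173113472, with 36 tags. Its fold enrichment was 9.89, since its background of 2.74 tags was among the higher ones. The next, chr11:101878333-101878574, had 35 tags at 13.6-fold. The most remote were chr15:22833317-22833463 and chr15:23034568-23034667, at 5508 and 5307 kb from a vehicle region, with 14 and 16 tags. On the X chromosome chrX:90689637-90689849 had 20 tags at 12.9-fold, 5286 kb from an estradiol region. Regions were not checked for repeats or mapping artefacts. The weakest by p-value was chr16:69373496-69373584, with 11 tags over the minimum length of 89 bp.

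Regions just inside and just outside the 10 kb limit had similar values. The 5 nearest that still counted as isolated lay 10038 to 10281 bp from a vehicle or estradiol peak. They were chr7:14020814-14020920 (20 tags, 10.4-fold), chr3:194393220-194393339 (14 tags, 7.68-fold), chr19:10561692-10561898 (17 tags, 9.57-fold), chr1:249157483-249157632 (29 tags, 8.68-fold) and a region on chromosome 8 (21 tags, 7.89-fold). The 5 dexamethasone-only regions just within the limit lay 9839 to 9987 bp away. They were chr4:128620125-128620220 (13 tags, 8.67-fold), chr1:193080899-193080987 (16 tags, 9.73-fold), chr14:90910720-90910841 (20 tags, 10.6-fold), chr4:183006124-183006542 (22 tags, 9.39-fold) and chr4:53588444-53588748 (18 tags, 9.87-fold).

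The combination library was not used to choose the set, and it called almost none of it. Cells in it received the same 100 nM dexamethasone together with estradiol. Only 2 of the 3623 isolated regions overlapped a combination peak (0.0552%, 0.00669 to 0.199), against 1.06% of the merged regions with a dexamethasone peak and 1.16% of all merged regions. Of the dexamethasone-only regions within 10 kb of another region, 1 of 415 did (0.241%, 0.00610 to 1.34), of those shared by the hormones 11 of 2526 (0.435%, 0.218 to 0.778), and of those in all 3 libraries 75 of 1640 (4.57%, 3.61 to 5.70). Regions called with dexamethasone and vehicle had 0 of 199, which allows a share of up to 1.51%, taking 3 counts as the limit of a count of 0. At equal height the intervals of the isolated and the hormone-shared regions overlapped. Of the regions of 18 to 20 tags, 0 of 1003 isolated ones were called (by the same limit up to 0.299%), 1 of 573 shared by the hormones (0.175%, 0.00442 to 0.968) and 2 of 98 in all 3 libraries (2.04%, 0.248 to 7.18). At 21 to 23 tags these were 1 of 620 (0.161%, 0.00408 to 0.895), 2 of 547 (0.366%, 0.0443 to 1.31) and 4 of 164 (2.44%, 0.668 to 6.13). At 27 to 36 tags they were 1 of 89 (1.12%, 0.0284 to 6.10), 3 of 461 (0.651%, 0.134 to 1.89) and 21 of 748 (2.81%, 1.75 to 4.26).

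The combination library had the fewest tags and 146 regions in all. Scaled by tags times fragment length, the median isolated region would have 5.67 tags in it, below the lowest height called there, 8. Only the 130 isolated regions of 26 tags or more (3.59%) would reach 8 tags, and 1 of these was called. By this scaling most of the set would lie below the heights called there. Whether their signal was kept or lost in the presence of estradiol was not tested. The first of the 2 exceptions was chr2:133012796-133012910, with 34 tags and 12.5-fold enrichment after dexamethasone, where the combination peak had 25 tags and 14.9-fold enrichment over 58 bp. The second was chr8:82754673-82754790, with 22 tags and 9.59-fold enrichment after dexamethasone and 12 tags and 9.92-fold with the combination. In both, the combination height was above what the scaling gives, and the second had fewer than the 26 tags named above. Both regions lay over 100 kb from any vehicle or estradiol region, at 161 and 121 kb.

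Most isolated regions also stood apart from each other. Their nearest isolated neighbour was a median of 173 kb away (quartiles 55.1 and 415 kb). Another isolated region lay within 10 kb of 282 of them (7.78%, 6.93 to 8.70), and within 1 kb of 153 (4.22%, 3.59 to 4.93). Any other dexamethasone region lay within 10 kb of 7.87% (7.01 to 8.79), against 16.5% of the regions shared by the hormones (15.04 to 17.97) and 16.3% of those in all 3 libraries (14.6 to 18.2). The rule keeps regions beside a vehicle or estradiol peak out of the set, which lowers the first of these shares.

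The regions with a close neighbour formed 77 adjacent pairs with no more than 1 kb between their edges. The summits of a pair were a median of 310 bp apart (quartiles 251 and 448, range 166 to 1075), and in 63 pairs they were at most 500 bp apart. In 97 adjacent pairs where both regions were shared with vehicle or estradiol the median was 434 bp (328 and 610), and in 180 pairs of a shared region and a dexamethasone-only region beside it 387.5 bp (303 and 500). Summit distances include part of the region lengths, which were shorter in the isolated set. The median gaps between edges were more alike, at 183, 212 and 202.5 bp in the same order. The 153 isolated regions with a partner had a median of 21 tags over a background of 1.40, and those without had 18 tags over 0.970. Their median fold enrichments were 8.76 and 9.39. A partner lies inside the background window, and its part in these values was not tested.

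**Figure D4:**
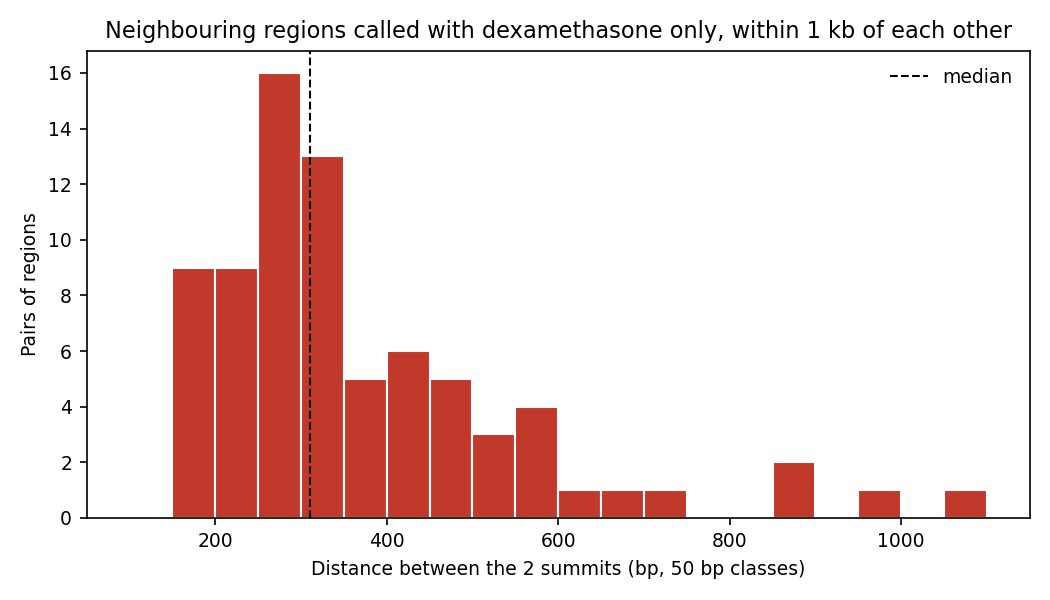
Distance between the summits of the 77 adjacent pairs of isolated dexamethasone-only regions that lie within 1 kb of each other, in 50 bp classes. The dashed line is the median, 310 bp, and 63 pairs are at 500 bp or less.

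The pair whose weaker partner had the highest fold enrichment, chosen after its values were seen, was chr2:158732815-158732989 and chr2:158733144-158733243. They had 26 and 25 tags, 11.4-fold and 11.1-fold enrichment, and summits 295 bp apart. A similar pair was chr1:213188840-213188998 and chr1:213189112-213189240, with 26 and 28 tags and summits 228 bp apart. In each pair the partners differed by 1 or 2 tags.

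Larger groups were few. Counted along each chromosome from its start and without overlap, 101 stretches of at most 100 kb held 3 or more isolated regions. They held 317 in all (8.75% of the set). A region just past a counted stretch can lie within 100 kb of the last 2 in it without being counted, so 317 is a lower limit. The stretches named below are among those counted. Of these stretches 90 held 3 regions, 8 held 4 and 3 held 5. The tightest stretch of 5 was chr12:13251641-13288944, over 37.3 kb. Its regions had 23, 18, 21, 26 and 27 tags in order along the chromosome, with fold enrichments from 6.96 to 9.38 and backgrounds from 1.48 to 2.45. Its members fell into a single region and 2 close pairs. The second stretch of 5, chr16:31085593-31153893, had heights of 16, 20, 16, 21 and 19 tags and fold enrichments from 6.84 to 10.96, and lay 126 kb or more from any vehicle or estradiol region.

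The third stretch of 5, chr1:145470383-145549236, had 16, 23, 16, 18 and 13 tags. It began 14.8 kb from a vehicle or estradiol region. The tightest stretches of 4 were chr20:30292494-30327079 (14, 16, 21 and 15 tags over 34.6 kb) and chr9:35103159-35162081 (14, 21, 25 and 16 tags over 58.9 kb). No vehicle or estradiol region lay inside any of these 5 stretches, and their regions stayed at or below 27 tags.

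Every chromosome counted held isolated regions, at between 0.589 per Mb on the X chromosome and 2.30 per Mb on chromosome 19, up to the furthest called position. Chromosomes 12 and 17 followed chromosome 19, with 1.68 and 1.54 per Mb, and chromosomes 22 and 21 had 0.655 and 0.666. Regions called with both hormones, with or without vehicle, showed much the same order, from 0.427 per Mb on the X chromosome to 2.90 on chromosome 19. Across the 23 chromosomes the densities had a Pearson correlation of 0.920 and a Spearman correlation of 0.832, and 0.839 by Pearson without chromosome 19 and X. This is a description: chromosomes share the library, gene density and mappability, and both counts come from the dexamethasone list.

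**Figure D5:**
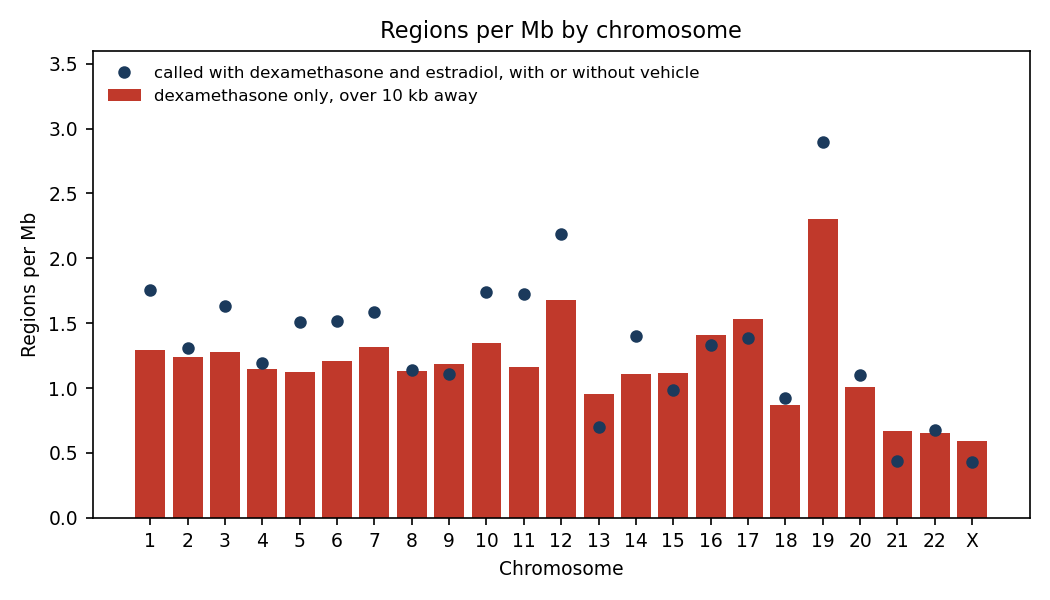
Isolated dexamethasone-only regions per Mb (bars) and regions called with both hormones, with or without vehicle, per Mb (points), by chromosome. Both are highest on chromosome 19, at 2.30 and 2.90 per Mb, and lowest on the X chromosome, at 0.589 and 0.427.

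As a share of a chromosome's dexamethasone regions, the isolated ones ranged from 37.4% on chromosome 11 (156 of 417, 32.7 to 42.3) to 56.1% on chromosome 21 (32 of 57, 42.4 to 69.3), around the 43.1% of the whole list. Chromosome 13 had 53.9% (46.8 to 60.9) and the X chromosome 53.5% (45.7 to 61.2), and both intervals lay above that share. On chromosome 1 it was 38.4% (35.1 to 41.8), and this interval and that of chromosome 11 lay below. These are 4 of 23 intervals.

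Background tags also differed between chromosomes. The median background of the isolated regions was 0.676 tags on the X chromosome and 0.801 on chromosome 22, and 1.17 on both chromosome 10 and chromosome 12. The hormone-shared regions with or without vehicle had 0.872 and 0.930 on X and 22, and 1.53 and 1.49 on chromosomes 10 and 12. Median heights of isolated regions moved with it, from 15 tags on X and 22 to 19 on chromosomes 10 and 12, while the median fold enrichments there were 9.63, 9.35, 9.03 and 9.13. The number of copies of each chromosome in these cells was not measured here, and its part in these values was not tested. A region over a higher background also needs more tags to pass the p cutoff, and the part of this was not tested either.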

How the data were processed

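Open chromatin was measured by ATAC-seq in 4 libraries of Ishikawa cells, 1 per treatment, grouped by the treatment label. Peaks were called by the authors in each library alone with MACS 2.1.0.20140616, per the file headers, with no control library, a p cutoff of 1e-10 and at most 1 tag per position. Bowtie 1.1.2 and hg19 are named in the submitters' processing notes. The deposited pileup is a signal in whole tags, not scaled to depth. Fold enrichment, as deposited, is the ratio of that pileup to local background, each with 1 added. The p-values and q-values were deposited as −log10. The background was recovered from the pileup and the fold. No shift for the transposase is recorded in the headers, so heights count extended tags.

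Edges were compared as start minus end, and shares carry 95% Clopper-Pearson intervals. With 1 library per treatment no test was possible. The code was checked on planted regions. Named regions were the 10 highest by fold enrichment, those called in the combination library and 5 on each side of the 10 kb limit. The 5 largest of the groups within 100 kb, counted without overlap, were named too. The members and lists were chosen with earlier results of these data known. Gene positions, response element counts and sequences were planned and are not analysed here, because the reference tables used are on another build. Python 3.11.15, numpy 2.4.6, pandas 2.3.3, scipy 1.17.1 and matplotlib 3.10.9 were used.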

Additional observations from a re-analysis of the deposited data

How the results depend on the processing

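The count of 3623 isolated regions stayed within 1.5 times of itself with a limit of 5, 20 or 50 kb (3759, 3399 and 2834). The same held with dexamethasone peaks limited to a −log10 q of 10 or more (3279), all chromosomes, or the combination library kept away too (3621). An overlap of 50% or a limit of 5-fold enrichment could not change the count. The 10 kb limit already keeps out any region that overlaps a vehicle or estradiol peak, and the lowest fold enrichment in the set was 5.94. The count moved with the length of the dexamethasone list. It was 1259 when that list was cut to the length of the estradiol list and 140 at the length of the vehicle list. It was 1216 at a fold enrichment of at least 10 and 883 at a −log10 p of at least 20, the latter 2 chosen after seeing the data. All these smaller sets lay within the 3623, because the alternatives keep fewer peaks. The share with an isolated neighbour within 10 kb, 7.78%, became 23.4% within 50 kb, and fell to 1.81% and 2.04% at the same fold and p limits. The share called in the combination library stayed between 0.0552% (2 of 3623) and 0.113% (1 of 883) under the 5 alternatives run. Each of these shares rests on 1 or 2 regions, and the 5-fold limit could not change it. Alternatives for response elements, gene starts and listed genes were not run. No paired analysis was possible because each treatment had 1 library. Depth limits what a missing call in vehicle can show, with 10694743 tags against 14980230 for dexamethasone; estradiol was deeper, with 20185339.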
